A study of Homo sapiens with 12 samples.

Results

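Aminoacyl-tRNA synthetases are the enzymes that join each amino acid to its transfer RNA before protein synthesis. The 36 genes described here were chosen by name, 20 for the cytosolic enzymes and 16 with names ending in 2 for the mitochondrial enzymes, and all 36 were found under their listed names among 32077 genes of the count table. RNA-seq was done on PC3 and DU145 cells, 2 androgen-independent human prostate cancer lines of wild-type genotype, after 48 hours in 6-well plates with vehicle or with 2.5 μmol/L pentamidine, an antiprotozoal diamidine. The 4 groups (vehicle PC3, pentamidine-treated PC3, vehicle DU145 and pentamidine-treated DU145 cells) had 3 samples each, 12 in all, with 13514195 to 15131436 counts per sample. The labels do not say that the 3 samples of a group came from separate cultures, so p-values measure the spread between these samples, which may be technical.

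The cytosolic enzymes supply the translation of messenger RNAs from nuclear genes, whereas the mitochondrial enzymes serve the few proteins encoded by mitochondrial DNA and are themselves made from nuclear genes and imported. Glycine and lysine have no mitochondrial gene of their own, because GARS and KARS encode both forms, and mitochondrial glutaminyl-tRNA is made by a transamidase. When uncharged tRNAs accumulate or the mitochondria are disturbed, the kinases of the integrated stress response raise translation of the transcription factor ATF4, which is known to act on many cytosolic synthetase genes through a short promoter element, the amino acid response element.

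The core of that element, TGATGNAAN, was searched on both strands in the RefSeq promoter windows (build GRCh38.p14). These windows run from 250 bases before to 50 bases after each annotated start. Windows were held for 30 of the 36 genes, and 8 of the 30 carried the core, against 4.45% of all 27305 genes with a window. Among the cytosolic genes 7 of 16 carried it, and among the mitochondrial genes 1 of 14. DARS, LARS, VARS, YARS, AARS2 and VARS2 had no window among those used. The 8 matches are shown with 10 bases on either side, 5′ to 3′ on the strand of the gene, with the core or its reverse complement in capitals.
TARS: gcgcctttcgATTGCATCAgctggtccag
GARS: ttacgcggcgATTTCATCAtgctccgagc
IARS: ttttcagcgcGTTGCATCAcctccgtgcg
CARS: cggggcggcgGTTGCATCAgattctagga
MARS: gccggttccgGTTGCATCAgcgagggatt
AARS: ttttctcgcaGTTGCATCAgccaagttag
NARS: ctacgctctcTGATGCAACgccggaatcg
YARS2: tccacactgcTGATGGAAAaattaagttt

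The stretches lie at chr5:33440956-33440984 (TARS, plus strand), chr7:30594834-30594862 (GARS, plus), chr9:92293693-92293721 (IARS, minus), chr11:3057408-3057436 (CARS, minus), chr12:57488053-57488081 (MARS, plus), chr16:70289676-70289704 (AARS, minus), chr18:57621804-57621832 (NARS, minus) and chr12:32756076-32756104 (YARS2, minus). EPRS, SARS and WARS had windows without the core, which says only that these letters are not in that window. A core of the site of NRF1, a factor of nuclear genes for mitochondrial proteins, was written GCGCATGC and searched on both strands. It was found in the windows of MARS2 and YARS2 (2 of 14 mitochondrial and 0 of 16 cytosolic genes, against 3.68% of all genes). A match is a description of the letters and not a measured binding site.

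In pentamidine-treated PC3 cells 12 of the 20 cytosolic genes rose and 3 fell, whereas 2 of the 16 mitochondrial genes rose and 5 fell (adjusted p below 0.05 in the quasi-likelihood test of edgeR, with the Benjamini-Hochberg method over all genes tested). Of all 13861 genes tested, 21.7% rose and 21.7% fell. In pentamidine-treated DU145 cells 12 cytosolic genes rose and 6 fell, and 2 mitochondrial genes rose and 3 fell, while 17.2% of 14313 genes tested rose and 16.8% fell. The median log2 fold change of the cytosolic genes was 0.56 in PC3 and 0.47 in DU145 cells, and that of the mitochondrial genes was -0.060 and -0.048, beside medians of 0.0046 and 0.0085 over all genes. The same 12 cytosolic genes (AARS, CARS, EPRS, GARS, IARS, LARS, MARS, NARS, SARS, TARS, WARS and YARS) rose in both lines, where 9.94% of 13125 genes tested in both did, and FARSA, RARS and VARS fell in both, where 9.62% did. In these bulk samples a change in RNA per cell and a change in the share of cells with that RNA cannot be told apart.

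**Figure D1:**
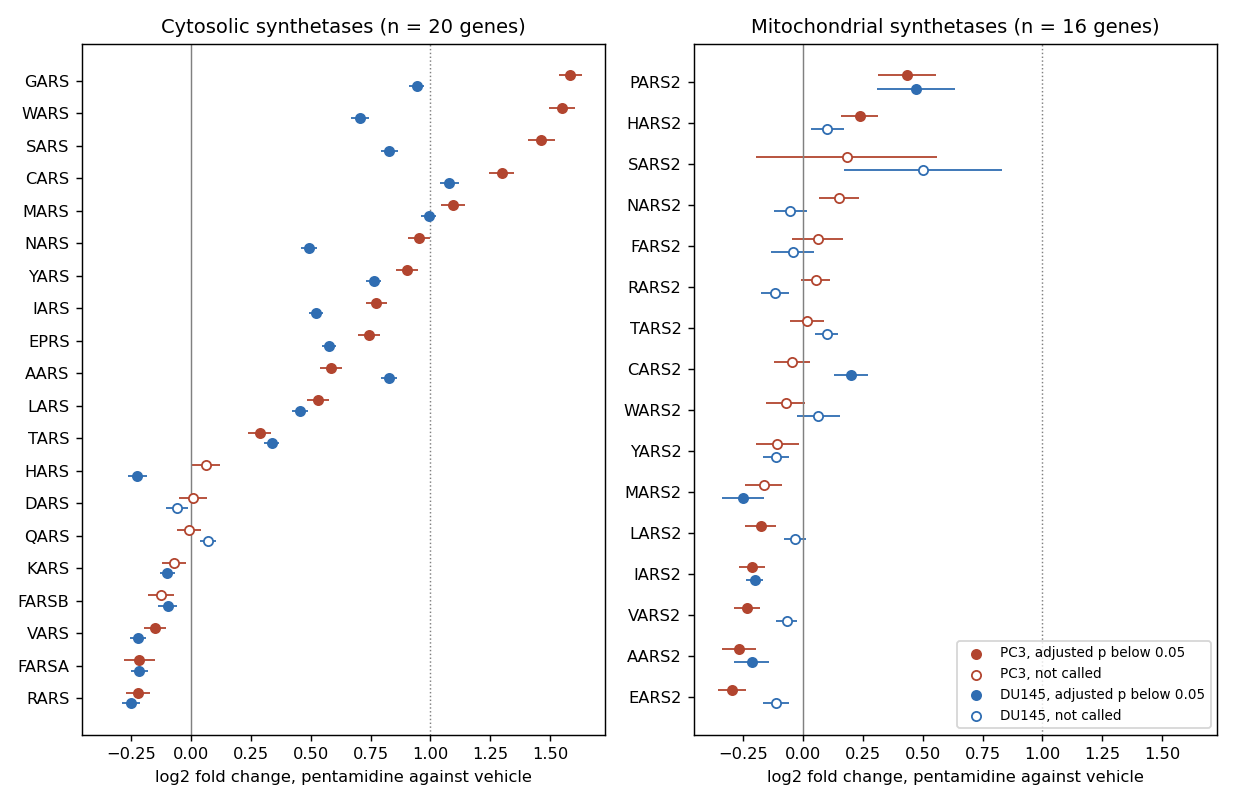
Log2 fold change of each of the 20 cytosolic (left) and 16 mitochondrial (right) synthetase genes, pentamidine against vehicle, in PC3 (red) and DU145 (blue) cells. Bars are 1 standard error, filled points have an adjusted p below 0.05 and the dotted line marks a 2-fold rise. The cytosolic genes divide into 12 to the right of 0 in both lines and 8 near or below it, and the mitochondrial genes lie between -0.30 and 0.50.

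GARS, which charges glycine in both compartments, changed most in PC3 cells. It stood at 347, 341 and 355 CPM (counts scaled to a common library size with TMM factors) in vehicle PC3 cells and at 1046, 1067 and 1006 CPM in pentamidine-treated PC3 cells, a 3.00-fold rise (log2 fold change 1.59, SE 0.047, adjusted p = 4.2e-14). In DU145 cells it stood at 312, 315 and 316 CPM with vehicle and at 604, 605 and 597 with pentamidine (log2 fold change 0.94, SE 0.031, adjusted p = 1.0e-31). The lines lay 0.12 apart on the log2 scale with vehicle, and every treated PC3 sample was above every treated DU145 sample. For WARS, the tryptophan enzyme, the vehicle samples of the lines were already apart. Its levels were 89.1, 82.7 and 92.7 CPM in vehicle PC3 cells against 257, 265 and 249 with pentamidine (log2 fold change 1.55, SE 0.055, adjusted p = 4.5e-13). They were 129, 137 and 127 CPM in vehicle DU145 cells against 209, 215 and 215 with pentamidine (log2 fold change 0.71, SE 0.038, adjusted p = 4.9e-22). WARS was thus lower in PC3 than in DU145 cells with vehicle and higher with pentamidine, with no overlap in either condition.

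SARS, the serine enzyme, was already higher in PC3 than in DU145 cells with vehicle, and rose in both. Its levels were 243, 240 and 274 CPM in vehicle PC3 cells and 687, 717 and 677 in treated PC3 cells (log2 fold change 1.46, SE 0.056, adjusted p = 1.2e-12). In DU145 cells they were 174, 181 and 174 CPM with vehicle and 317, 306 and 314 with pentamidine (log2 fold change 0.83, SE 0.035, adjusted p = 6.9e-27). No treated sample overlapped a vehicle sample of its line. CARS, the cysteine enzyme, was the only member to pass 2-fold in both lines. It rose from 83.8, 85.5 and 87.2 CPM to 212, 217 and 200 in PC3 cells (log2 fold change 1.30, SE 0.054, adjusted p = 3.3e-12). The DU145 samples held 93.3, 90.1 and 91.7 CPM with vehicle and 197, 192 and 190 with pentamidine (log2 fold change 1.08, SE 0.039, adjusted p = 1.1e-29). For CARS the treated samples of the lines lay close together, from 190 to 217 CPM.

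MARS charges methionine, the first residue of every new chain, and is a member of the multisynthetase complex. It was at 346, 343 and 370 CPM in vehicle PC3 cells and 747, 773 and 735 with pentamidine (log2 fold change 1.10, SE 0.049, adjusted p = 1.1e-11). Its DU145 levels were 302, 293 and 288 CPM with vehicle and 596, 578 and 578 with pentamidine (log2 fold change 0.99, SE 0.032, adjusted p = 3.2e-32). Its 3′ end overlaps DDIT3, the gene of the stress factor CHOP, by 982 bases on the opposite strand. DDIT3 itself had mean counts of 68.7 and 458 in vehicle and treated PC3 cells and 78.7 and 193 in DU145 cells. The part of shared reads in the result was not tested. With GARS, WARS, SARS and CARS, MARS made up the 5 cytosolic genes that rose more than 2-fold in PC3 cells, as 3.44% of all genes tested did. In DU145 cells CARS alone did so, as did 1.37% of all genes.

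**Figure D2:**
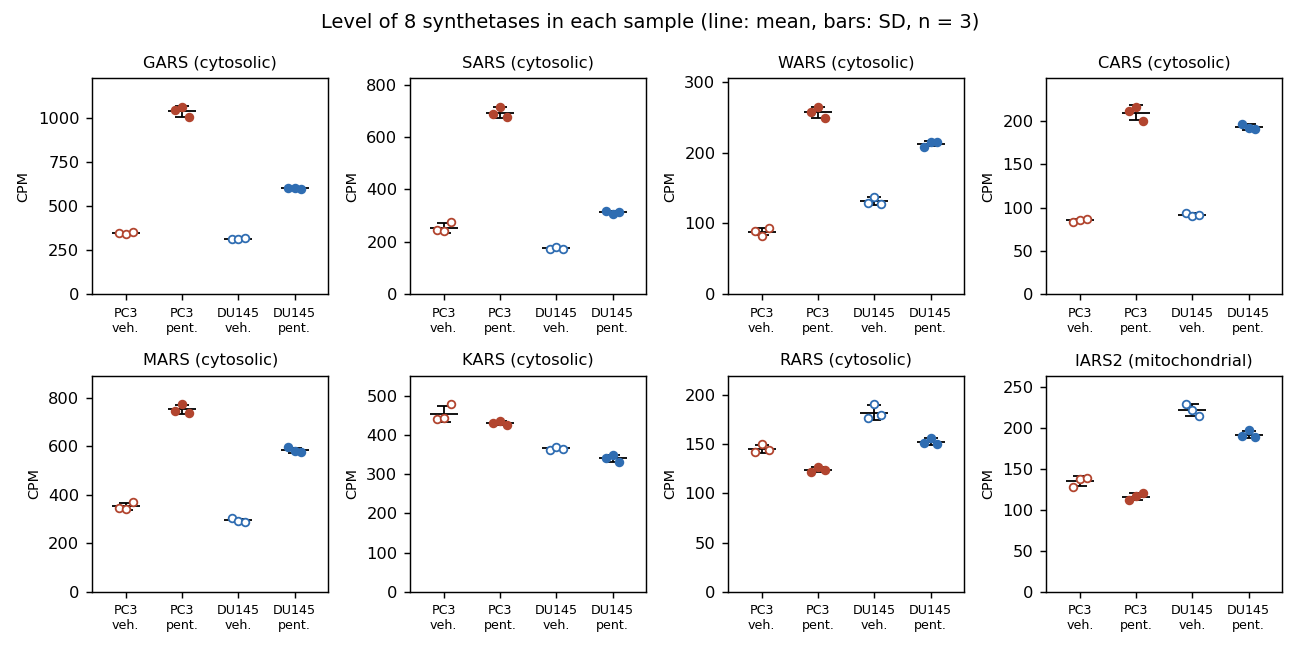
Level in CPM of 8 synthetase genes in each of the 12 samples, with PC3 in red, DU145 in blue, vehicle as open and pentamidine as filled points, and the mean and SD of 3 samples as lines. GARS, SARS, WARS, CARS and MARS show treated samples above all vehicle samples of the same line, whereas KARS, RARS and IARS2 show treated samples below them.

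The other 7 risers changed by less than 2-fold in both lines. AARS, the alanine enzyme, was the only one of the 12 to rise significantly more in DU145 cells. It stood at 506, 485 and 511 CPM in vehicle and 738, 764 and 741 in treated PC3 cells, and at 321, 310 and 294 in vehicle and 548, 550 and 538 in treated DU145 cells. Its log2 fold change was 0.58 (SE 0.046, adjusted p = 2.0e-08) in PC3 and 0.83 (SE 0.033, adjusted p = 5.6e-28) in DU145 cells. TARS, the threonine enzyme, had the smallest rise of the 12. It went from 384, 412 and 393 CPM to 479, 490 and 478 in PC3 cells (log2 fold change 0.29, SE 0.048, adjusted p = 0.00012). DU145 cells had 579, 642 and 609 CPM with vehicle and 786, 762 and 756 with pentamidine (log2 fold change 0.34, SE 0.032, adjusted p = 1.2e-12). The rise of TARS was small, but the groups did not overlap in either line.

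Between these came the asparagine, tyrosine, isoleucine, glutamate-proline and leucine enzymes. NARS had mean levels of 332 ± 6.11 and 642 ± 14.2 CPM (SD, n = 3) in vehicle and treated PC3 cells and of 308 ± 1.39 and 433 ± 8.61 in DU145 cells. YARS had means of 408 ± 7.95 and 762 ± 16.2 CPM in PC3 and 298 ± 4.60 and 504 ± 7.30 in DU145 cells. IARS stood at 477 ± 7.82 and 814 ± 11.96 CPM in PC3 and at 428 ± 8.60 and 613 ± 2.66 in DU145 cells. In these 3 genes the rise was many times the spread of the samples. EPRS, a single chain that charges both glutamate and proline, had 289 ± 5.68 CPM with vehicle and 482 ± 19.1 with pentamidine in PC3, and 358 ± 2.23 and 532 ± 3.59 in DU145 cells. LARS, for leucine, had 358 ± 8.07 and 515 ± 10.1 CPM in PC3, and 298 ± 6.49 and 407 ± 3.99 in DU145 cells. Across the 12 genes the fold change ran between 1.22 and 3.00 in PC3 and between 1.26 and 2.11 in DU145 cells, the largest adjusted p was 0.00012 and 1.2e-12, and treated and vehicle samples did not overlap for any of them, as was so in the upward direction for 26.1% of all genes in PC3 and 21.9% in DU145 cells.

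The 8 cytosolic genes that did not rise changed little or fell. RARS, the arginine enzyme, stood at 142, 150 and 144 CPM in vehicle and 122, 127 and 123 in treated PC3 cells (log2 fold change -0.22, SE 0.052, adjusted p = 0.0022). In DU145 cells it stood at 176, 190 and 179 CPM with vehicle and 151, 156 and 150 with pentamidine (log2 fold change -0.25, SE 0.038, adjusted p = 4.3e-07). RARS was lower in every treated sample than in any vehicle sample of the same line. VARS, the valine enzyme, fell by 0.15 on the log2 scale in PC3 (SE 0.046, adjusted p = 0.013) and by 0.22 in DU145 cells (SE 0.033, adjusted p = 2.0e-07). FARSA, the alpha subunit of the phenylalanine enzyme, fell by 0.22 in both (adjusted p = 0.010 and 3.7e-06). The call of FARSA in PC3 cells was lost without pentamidine replicate 3 (log2 fold change -0.19, adjusted p = 0.062) or vehicle replicate 3 (-0.14, adjusted p = 0.051), and that of VARS without pentamidine replicate 3 (-0.14, adjusted p = 0.054).

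FARSB, the beta subunit, had log2 fold changes of -0.13 and -0.10 in the PC3 and DU145 lines (adjusted p = 0.067 and 0.047), the latter a call that was lost without either of pentamidine replicates 1 and 2 or either of vehicle replicates 2 and 3 (log2 fold change between -0.10 and -0.089) or with library size alone (-0.048, adjusted p = 0.37), and made in PC3 cells without vehicle replicate 1 (-0.14, adjusted p = 0.046). KARS, the lysine enzyme of both compartments, was at 440, 442 and 478 CPM in vehicle and 431, 434 and 425 in treated PC3 cells (log2 fold change -0.07, SE 0.049, adjusted p = 0.26). It was at 363, 370 and 364 CPM in vehicle and 341, 348 and 331 in treated DU145 cells (log2 fold change -0.10, SE 0.032, adjusted p = 0.013, a call lost without pentamidine replicate 3, at -0.085 with adjusted p = 0.071, with library size alone, at -0.049 with adjusted p = 0.24, and in the fit of all 12 samples, with adjusted p = 0.057). The other gene that serves both compartments, GARS, was thus the member with the largest rise in PC3 cells. HARS, the histidine enzyme, had a value of 0.06 on the log2 scale in PC3 (adjusted p = 0.44) and fell by 0.23 in the DU145 line (SE 0.039, adjusted p = 5.1e-06). DARS, for aspartate, was within 0.06 of no change on the log2 scale in both lines (adjusted p = 0.94 and 0.34), and QARS, for glutamine, had log2 fold changes of -0.0078 and 0.07 (adjusted p = 0.92 and 0.12, and 0.099 with adjusted p = 0.032 in DU145 cells without vehicle replicate 1).

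Features of the enzymes and their genes that were not used to choose them were counted among the 12 risers and the other 8, without a test. The amino acid response element core was in 7 of the 10 risers with a promoter window and in 0 of the other 6 cytosolic genes with one. Membership of the multisynthetase complex, which holds several enzymes together on scaffold proteins, was 4 of 12 (EPRS, IARS, LARS and MARS) against 4 of 8 (DARS, KARS, QARS and RARS). Both structural classes of synthetase were in both sets, with 6 of class I, 5 of class II and EPRS of both among the risers, and 3 of class I and 5 of class II among the others. Among the risers, the 7 with the core ran from TARS, with the smallest rise, to GARS, and SARS and WARS, with the next largest rises in PC3 cells, had windows without it. YARS2, the mitochondrial gene with the core, had log2 fold changes of -0.11 in both lines (adjusted p = 0.36 and 0.11), and without vehicle replicate 1 it passed the test in PC3 cells (-0.22, adjusted p = 0.014).

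**Figure D3:**
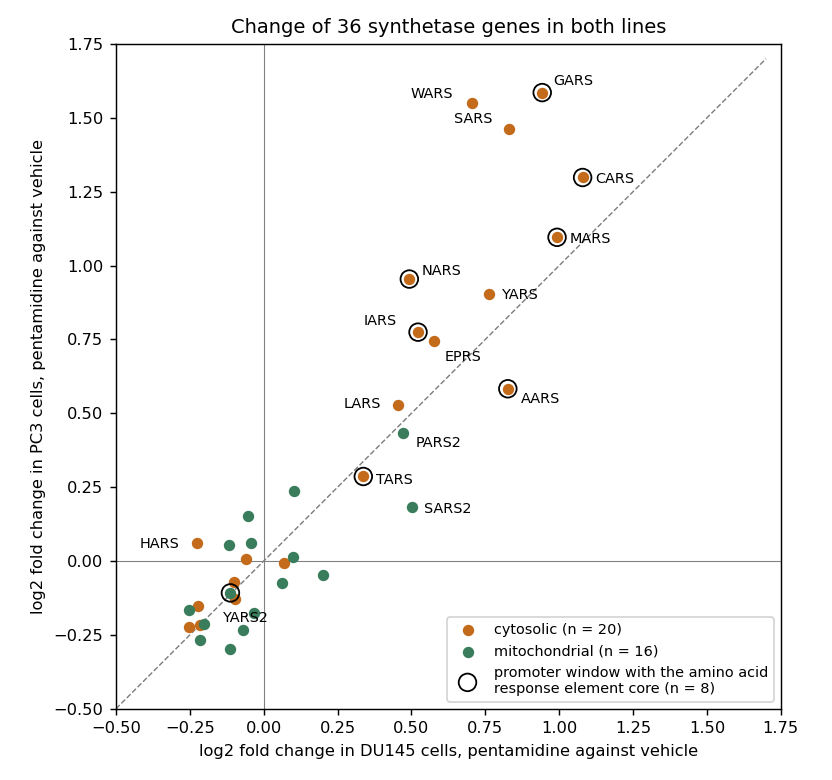
Log2 fold change, pentamidine against vehicle, of the 36 synthetase genes in DU145 (horizontal) and PC3 cells (vertical), with cytosolic genes in orange, mitochondrial genes in green, and a black ring where the promoter window holds the amino acid response element core. Of the 8 ringed genes 7 are cytosolic and lie in the upper right, and most cytosolic risers lie above the dashed line of equal change.

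The mitochondrial genes stayed within 0.50 of no change on the log2 scale in both lines, and none passed 2-fold. PARS2, the mitochondrial proline enzyme, was the only one that rose in both. It stood at 9.22, 8.75 and 9.81 CPM in vehicle and 11.7, 11.7 and 13.98 in treated PC3 cells (log2 fold change 0.43, SE 0.12, adjusted p = 0.0083). The DU145 samples had 4.55, 4.21 and 5.85 CPM with vehicle and 6.58, 7.47 and 6.19 with pentamidine (log2 fold change 0.47, SE 0.16, adjusted p = 0.020). The groups of PARS2 did not overlap, but its counts were low (60 to 207 per sample) and its calls rested on single samples. The call in PC3 cells was lost without pentamidine replicate 3 (0.34, adjusted p = 0.059), and that in DU145 cells without pentamidine replicate 2 (0.39, adjusted p = 0.12), vehicle replicate 1 (0.42, adjusted p = 0.074) or vehicle replicate 2 (0.37, adjusted p = 0.11).

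IARS2 and AARS2, the isoleucine and alanine enzymes of mitochondria, fell in both lines while their cytosolic partners IARS and AARS rose. IARS2 stood at 128, 138 and 139 CPM in vehicle and 112, 117 and 120 in treated PC3 cells (log2 fold change -0.21, SE 0.056, adjusted p = 0.0051). In DU145 cells it stood at 229, 222 and 215 CPM with vehicle and 191, 197 and 189 with pentamidine (log2 fold change -0.20, SE 0.036, adjusted p = 9.1e-06). Its groups did not overlap in either line. AARS2 fell from 46.8, 45.6 and 45.8 CPM to 36.9, 36.1 and 41.3 in PC3 cells (log2 fold change -0.27, SE 0.071, adjusted p = 0.0055). DU145 cells had 49.1, 36.9 and 42.0 CPM with vehicle and 39.2, 35.7 and 34.8 with pentamidine (log2 fold change -0.22, SE 0.072, adjusted p = 0.016), and there the groups overlapped. The DU145 call of AARS2 was lost without pentamidine replicate 2 (-0.21, adjusted p = 0.069), pentamidine replicate 3 (-0.19, adjusted p = 0.070) or vehicle replicate 1 (-0.11, adjusted p = 0.26).

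The remaining mitochondrial calls were each made in 1 line. EARS2 (glutamate) and VARS2 (valine) fell in PC3 cells, with log2 fold changes of -0.30 (SE 0.059, adjusted p = 0.00064) and -0.23 (SE 0.054, adjusted p = 0.0020), beside -0.11 and -0.07 in DU145 cells (adjusted p = 0.095 and 0.24). LARS2 (leucine) fell by 0.18 in PC3 cells (adjusted p = 0.035), and HARS2 (histidine) rose by 0.24 there (adjusted p = 0.019). In DU145 cells CARS2 (cysteine) rose by 0.20 (adjusted p = 0.021) and MARS2 (methionine) fell by 0.25 (adjusted p = 0.021). All 4 were sensitive to single samples. Without PC3 pentamidine replicate 1, 2 or 3 or vehicle replicate 1 or 3, LARS2 had a log2 fold change between -0.20 and -0.14 and an adjusted p between 0.053 and 0.17. HARS2 had 0.18 to 0.22 and an adjusted p between 0.052 and 0.11 without pentamidine replicate 2 or vehicle replicate 1 or 2, CARS2 0.15 to 0.19 (adjusted p 0.066 to 0.14) without DU145 pentamidine replicate 1 or 2 or vehicle replicate 1, and MARS2 -0.21 and -0.18 (adjusted p = 0.089 and 0.18) without pentamidine replicate 1 or vehicle replicate 3.

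The other 7 mitochondrial genes (FARS2, NARS2, RARS2, SARS2, TARS2, WARS2 and YARS2) passed the test in neither line. SARS2 had only 9 to 24 counts per sample, or 0.706 ± 0.121 and 0.801 ± 0.0693 CPM in vehicle and treated PC3 cells and 1.07 ± 0.197 and 1.51 ± 0.155 in DU145 cells (log2 fold change 0.18, SE 0.38, and 0.50, SE 0.33), so that a change of this size was not detectable at these counts. The SARS2 gene shares 15493 bases on the same strand with AC011455.2, and whether this lowered its counts was not tested. Of the 16 mitochondrial genes 2 had treated samples all above and 6 all below the vehicle samples in PC3 cells, and 4 and 6 in DU145 cells. The corresponding shares of all genes were 26.1% and 26.1% in PC3 and 21.9% and 22.1% in DU145 cells.

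Summed over the class, the 20 cytosolic genes took 0.568, 0.574 and 0.583% of all counts in vehicle PC3 cells and 0.906, 0.920 and 0.900% in pentamidine-treated PC3 cells. In DU145 cells they took 0.525, 0.528 and 0.519% with vehicle and 0.741, 0.739 and 0.735% with pentamidine. The 16 mitochondrial genes together took 0.0792 ± 0.0016% in vehicle and 0.0727 ± 0.0010% in treated PC3 cells (SD, n = 3), and 0.0835 ± 0.0010% and 0.0819 ± 0.00071% in DU145 cells. The cytosolic share was higher in every treated sample than in any vehicle sample, and the mitochondrial share was lower in every treated PC3 sample and overlapped in DU145 cells. The ratio of the 2 sums was 7.26 ± 0.077 with vehicle and 12.5 ± 0.27 with pentamidine in PC3, and 6.28 ± 0.072 and 9.02 ± 0.047 in DU145 cells.

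**Figure D4:**
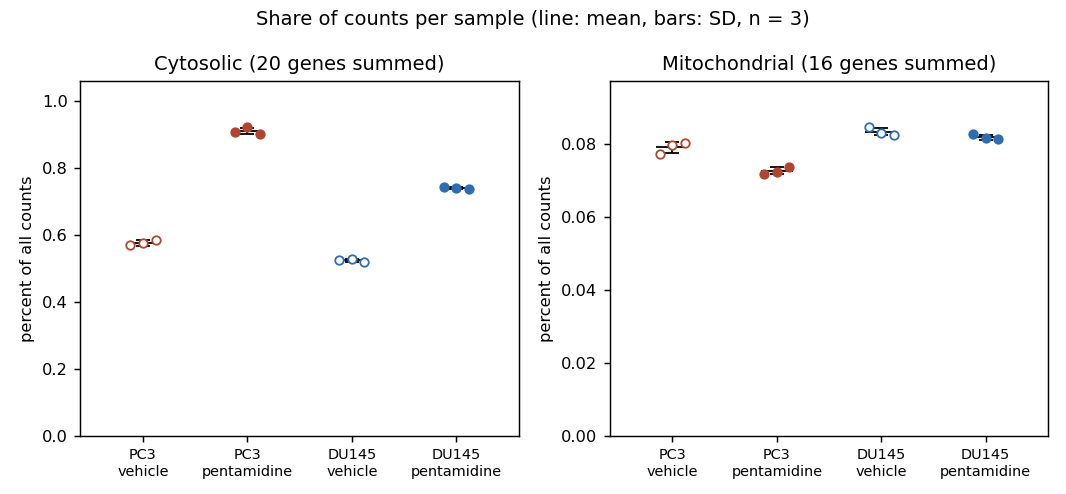
Percent of all counts in each sample that fell on the 20 cytosolic (left) and 16 mitochondrial (right) synthetase genes, with the mean and SD of 3 samples, on axes that start at 0 and differ in scale. The cytosolic share is 0.909% in treated PC3 and 0.739% in treated DU145 cells, above 0.575% and 0.524% with vehicle, whereas the mitochondrial share stays between 0.0718 and 0.0846%.

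Each cytosolic gene was also set against the mitochondrial gene for the same amino acid within each sample, as the log2 ratio of their CPM, over 17 pairs. EPRS and FARS2 are each in 2 pairs, and the ratios contain the cytosolic changes given above. Shares over other gene pairs were not computed. Of single genes, 26.1% lay higher and 26.1% lower without overlap in PC3 cells, and 21.9% and 22.1% in DU145 cells. In PC3 cells the ratio was higher in all treated than in all vehicle samples for 13 pairs, lower for 2 (HARS with HARS2 and RARS with RARS2) and overlapping for both phenylalanine pairs. The largest shift was that of tryptophan, where the ratio of WARS to WARS2 went from 1.77 ± 0.14 to 3.39 ± 0.074 (SD, n = 3). For cysteine it went from 1.51 ± 0.014 to 2.86 ± 0.056, and for methionine from 3.58 ± 0.062 to 4.84 ± 0.12. In DU145 cells the ratio was higher without overlap for 10 pairs, lower for 4 (HARS, RARS, VARS and FARSA with their partners) and overlapping for 3. There the largest shift was that of methionine, from 3.68 ± 0.19 to 4.92 ± 0.11, followed by alanine, from 2.86 ± 0.19 to 3.90 ± 0.083. Valine was the one pair whose ratio moved up in PC3 cells, by 0.082, and down in DU145 cells, by -0.15 on the same scale, a difference that was not tested.

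**Figure D5:**
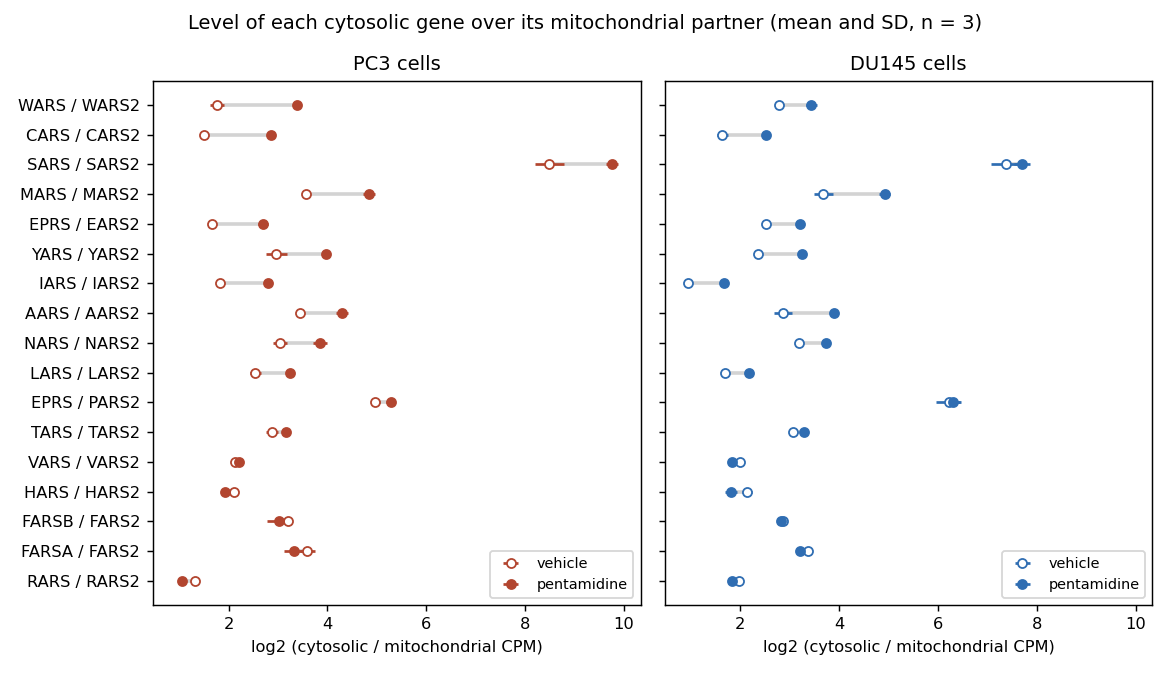
Log2 ratio of the CPM of each cytosolic synthetase gene to that of the mitochondrial gene for the same amino acid, as mean and SD of 3 samples, in PC3 (left) and DU145 (right) cells, with vehicle as open and pentamidine as filled points. The filled point lies to the right for 13 of 17 pairs in PC3 cells, most of all for WARS over WARS2.

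To ask whether the lines responded by different amounts, the PC3 change minus the DU145 change was tested as an interaction over all 12 samples. For 8 of the 20 cytosolic genes the change was more positive in PC3 cells and for 1 it was more positive in DU145 cells, as it was for 10.2% and 10.3% of 15226 genes tested. The largest differences were those of WARS (0.84 on the log2 scale, SE 0.067, adjusted p = 2.4e-10), GARS (0.64, SE 0.052, adjusted p = 3.6e-10), SARS (0.63, SE 0.064, adjusted p = 2.4e-08) and NARS (0.46, SE 0.052, adjusted p = 1.6e-07). Smaller ones were those of HARS (0.29), IARS (0.25), CARS (0.22, adjusted p = 0.013) and EPRS (0.17, adjusted p = 0.028), both of which were lost when scaled by library size alone (0.15, adjusted p = 0.086, and 0.099, adjusted p = 0.20). That of EPRS was also lost without DU145 pentamidine replicate 1 (0.16, adjusted p = 0.060) or 2 (0.16, adjusted p = 0.067) or PC3 pentamidine replicate 3 (0.13, adjusted p = 0.10). AARS alone differed the other way (-0.24, SE 0.055, adjusted p = 0.0019). YARS did not pass (0.14, adjusted p = 0.056), but did without PC3 pentamidine replicate 3 (0.16, adjusted p = 0.049) or vehicle replicate 3 (0.16, adjusted p = 0.026). It also passed with all samples under other processing. The adjusted p was 0.0065 with DESeq2 (0.16) and 0.035 with RLE size factors in edgeR (0.16). It was 0.044 with a filter of 10 counts in every sample (0.14) and 0.044 without mitochondria-encoded genes (0.15).

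MARS, LARS and TARS had differences of 0.10, 0.07 and -0.05 that did not pass the test, with standard errors of 0.053 to 0.058. Of the mitochondrial genes 0 passed by edgeR and 0 by DESeq2. At an unadjusted p below 0.05, edgeR had 1 of them higher and 3 lower in PC3 cells. The changes of the cytosolic genes in the lines had a Pearson correlation of 0.92 and a Spearman correlation of 0.89 over 20 genes, and those of the mitochondrial genes 0.74 and 0.69 over 16 genes, which share neither samples nor controls between the lines. The same correlations over all genes were not computed, so these values are not set against a background. No member changed significantly in opposite directions.

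Levels of different genes were compared as CPM per kilobase of the longest annotated transcript. With vehicle, KARS was the highest cytosolic gene, at 187 ± 8.78 CPM per kb in PC3 and 151 ± 1.69 in DU145 cells, where TARS came next, at 141 ± 7.30. With pentamidine, GARS was the highest in both, at 395 ± 11.8 and 229 ± 1.68 CPM per kb, and SARS came next in PC3 cells, at 369 ± 11.1. In vehicle PC3 cells SARS, at 134 ± 9.86 CPM per kb, could not be placed beyond its spread against GARS and YARS, at 132 ± 2.62 and 126 ± 2.46. CARS was the lowest cytosolic gene in all 4 groups, at 14.9 to 36.6 CPM per kb. These places depend on the transcript chosen. Per kilobase of the median transcript, FARSB was the lowest in all 4 groups (37.5 to 43.9 CPM per kb). AARS (821) and TARS (806) were the highest in vehicle PC3 and DU145 cells, and GARS (1481) was the highest in treated PC3 cells. In treated DU145 cells MARS (1015.9) and TARS (1014.8) were the highest and could not be placed apart. The median of the cytosolic genes was 91.4 and 102 CPM per kb in vehicle and treated PC3 cells and 87.6 and 102 in DU145 cells. That of the mitochondrial genes was 13.9 and 11.99, and 14.01 and 13.7, with IARS2 or RARS2 highest and SARS2, whose count is uncertain, lowest.

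The lines also differed with vehicle alone. Of the cytosolic genes 10 were higher and 6 lower in vehicle PC3 than in vehicle DU145 cells, and of the mitochondrial genes 7 and 4, beside 31.5% and 33.8% of 14394 genes tested. With 1 sample left out at a time, 7 to 12 cytosolic genes were higher and 5 to 6 lower. For the mitochondrial genes these ranges were 5 to 8 and 3 to 4. These vehicle samples are the controls of the treatment comparisons above, so the 2 sets of values are given side by side and not related. The mitochondrial gene IARS2 was lower in PC3 cells (135 ± 6.13 against 222 ± 7.30 CPM, log2 difference -0.74, SE 0.051, adjusted p = 2.2e-09), as was the cytosolic gene QARS (163 ± 6.33 against 263 ± 11.5 CPM, -0.71, adjusted p = 2.0e-09). TARS and WARS were lower in PC3 cells by 0.65 and 0.60 on the log2 scale. AARS was higher there (501 ± 13.6 against 309 ± 13.4 CPM, 0.67, adjusted p = 1.9e-09), as was PARS2 (0.90, SE 0.15, adjusted p = 8.3e-05).

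Synthetases act with scaffold proteins, tRNA-modifying enzymes and elongation factors, and 19 such genes were examined beside them. In PC3 cells 5 rose and 2 fell, and in DU145 cells 3 rose and 3 fell, with medians of -0.034 and -0.039, beside the shares of all genes of 21.7% and 21.7% in PC3 and 17.2% and 16.8% in DU145 cells, so the counts were near the background. The scaffold genes of the multisynthetase complex AIMP1, AIMP2 and EEF1E1 passed the test in neither line, with log2 fold changes between -0.15 and 0.053. SEPSECS, the enzyme that turns phosphoseryl-tRNA into selenocysteinyl-tRNA, rose by 0.81 in PC3 (SE 0.11, adjusted p = 9.8e-06) and 0.52 in DU145 cells (SE 0.099, adjusted p = 2.9e-05). The elongation factor genes EEF1A1 and EEF2, which deliver charged tRNA and move the ribosome, rose by 0.51 and 0.61 in PC3 and by 0.29 and 0.31 in DU145 cells, and EEF1A1 has many near-identical pseudogenes, so its count is uncertain. GCN1, a partner of the kinase that senses uncharged tRNA, fell by 0.21 and 0.082 (adjusted p = 0.0019 and 0.043). Of the 3 genes of the mitochondrial glutaminyl-tRNA transamidase, QRSL1 rose by 0.19 and GATB fell by 0.23 in PC3 cells (adjusted p = 0.022 and 0.019), and GATC was at 0.0064. PSTK, which makes phosphoseryl-tRNA, rose by 0.38 in PC3 cells (adjusted p = 0.031). The mitochondrial elongation factor gene GFM1 fell by 0.19 and EIF2AK4, the kinase that senses uncharged tRNA, by 0.14 in DU145 cells (adjusted p = 0.0013 and 0.0030). MTFMT, TUFM, TSFM, GFM2, MTIF2 and MTIF3, of mitochondrial translation, passed in neither line.

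A list of 23 other genes, made of ATF4 itself and genes known as ATF4 targets or of the amino acid response, was also examined. It was chosen with earlier results of these data in view and is not independent evidence of its direction. Of these 23 genes, 22 rose and 1 fell in PC3 cells (median log2 fold change 2.04), and 19 rose and 1 fell of 22 tested in DU145 cells (median 1.178). Of all genes tested, 21.7% rose and 21.7% fell in PC3 cells, and 17.2% and 16.8% in DU145 cells. The 5 with the largest mean rise were CHAC1, SESN2, ATF3, ALDH1L2 and STC2. CHAC1, a glutathione-degrading enzyme, stood at 8.87 ± 0.852 CPM with vehicle and 134 ± 3.54 with pentamidine in PC3, and at 9.37 ± 1.21 and 69.2 ± 2.28 in DU145 cells. The largest rise among the synthetases, that of GARS in PC3 cells at 1.59, lay below the list's median in that line.

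The epithelial keratin genes KRT8 and KRT18 were detected in all samples, at 238 to 307 and 2125 to 3085 counts in PC3 and 25835 to 38812 and 9962 to 13423 in DU145 cells. The epithelial markers EPCAM and CDH1 were at or near 0 in both lines (0 to 2 and 0 to 10 counts), as was the prostate gene KLK3 (0 to 2). EPCAM and CDH1 are usually found in DU145 cells, so their rows may not reflect expression, which was not tested. Among markers of other cell types, PTPRC (0 to 1) and PECAM1 (0 to 10) were near 0 and COL1A1 had 3 to 40 counts. Of the 36 members, 23 overlap another annotated gene, and for 11 that gene had a mean of at least 100 counts. HARS and HARS2 overlap each other by 599 bases on opposite strands, HARS2 also overlaps ZMAT2 by 612 bases on the same strand, and KARS overlaps TERF2IP by 858 bases. The strand setting of the counting is not given in the sources used here, so the values of these genes and of GARS, MARS, YARS, CARS2, EARS2, SARS2, WARS2 and YARS2 are uncertain by the reads that the overlaps share. Long same-strand overlaps with genes of few counts were those of SARS2 with AC011455.2 (15493 bases) and VARS2 with GTF2H4 (5865 bases). The levels of SARS2 and VARS2 are uncertain for that reason too.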

How the data were processed

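Per the paper's methods, oligo(dT)-selected RNA was sequenced and aligned by the authors, and the submitters' processing notes name HISAT2 2.1.0, DESeq 1.18.1 and GRCh38. The counting tool and its strand setting are not given in the sources used here. The count table was deposited as whole, unnormalized read counts per gene. Its 33595 entries with an Ensembl identifier gave 32077 genes. A further table under the name of FPKM and the authors' own comparisons, which hold log2 fold changes and p-values, were not used. Genes were tested with edgeR 4.0.16 in R 4.3.3 (TMM normalization, filterByExpr with a minimum count of 10, quasi-likelihood F-test, Benjamini-Hochberg adjustment over all genes tested), each line on its own 6 samples and the difference between the lines as an interaction over 12. SE is the absolute log2 fold change over the square root of F. CPM used TMM factors over all 12 samples. Alternatives were DESeq2 1.42.0, other scalings and filters, a replicate block, an adjusted p below 0.01 and leaving out each sample. All 36 members are named, with the partner genes and the 5 ATF4 targets with the largest mean rise that passed in both lines. The members and lists were chosen with earlier results of these data known. Replicates of a group differed by more than sampling noise (mean chi-square per gene 1.72 to 7.30). Ranges of counts run from the lowest to the highest of the samples named. They hold differences between samples and groups as well as counting error.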

Additional observations from a re-analysis of the deposited data

Results flagged for a closer look

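The change differed between the lines, by the interaction test over all 12 samples, for 9 of the 36 synthetase genes, all of them cytosolic. The PC3 change minus the DU145 change on the log2 scale was 0.84 for WARS, 0.64 for GARS, 0.63 for SARS, 0.46 for NARS, 0.29 for HARS, 0.25 for IARS, 0.22 for CARS, 0.17 for EPRS and -0.24 for AARS. For all but HARS both lines rose, so the difference is one of size. HARS fell in DU145 cells and did not pass the test in PC3 cells, and it is one of the genes that overlap a neighbour. Groups of 3 samples were too small for the test of single outlying samples.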

How the results depend on the processing

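The 12 cytosolic genes that rose in both lines did so in each of the 15 alternatives run for each line, with no log2 fold change below 0.26 in PC3 or 0.29 in DU145 cells. No member's called change turned direction. At an adjusted p below 0.01 the cytosolic genes that fell in PC3 cells went from 3 to 1, the mitochondrial genes that rose from 2 to 1, and in DU145 cells the mitochondrial genes that rose from 2 to 0 and those that fell from 3 to 1. DESeq2 likewise gave 0 mitochondrial genes that rose (2 at an unadjusted p below 0.05) and 1 that fell in DU145 cells. The threshold of 0.01 in edgeR further ended the falls of FARSB (adjusted p = 0.0474) and KARS (0.013) in DU145 cells. It ended that of LARS2 (0.0355) in PC3 cells, and the interaction calls of CARS (0.0129) and EPRS (0.028). Without TMM factors (library size alone) the DU145 cytosolic median was 0.52 with 2 genes above 2-fold, the mitochondrial median was 0.0016 with 1 gene that fell, and 4 mitochondrial genes were lower by the interaction. That scaling also ended the DU145 calls of KARS, FARSB, AARS2 and MARS2 and the interaction calls of CARS and EPRS, and DESeq2 ended the PC3 call of LARS2 and the DU145 calls of FARSB, AARS2, CARS2, MARS2 and PARS2. With no filter on low counts 1 mitochondrial gene rose in DU145 cells.

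Leaving out 1 sample at a time gave 1 to 4 cytosolic genes that fell and 1 to 2 mitochondrial genes that rose in PC3 cells, with a mitochondrial median of -0.074 to -0.0056. In DU145 cells it gave 0 to 2 mitochondrial genes that rose, a mitochondrial median of -0.071 to -0.037 and 1 to 2 cytosolic genes above 2-fold. The PC3 count of cytosolic genes that fell was lowest without pentamidine replicate 3, the DU145 count of mitochondrial genes that rose was 0 without pentamidine replicate 2 or vehicle replicate 1, and MARS passed 2-fold in DU145 cells without vehicle replicate 1.

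The replicate numbers did not pair the samples. Same-numbered samples deviated from their group means with correlations of -0.19 to 0.059 in PC3 and -0.022 to 0.015 in DU145 cells, and not every sample correlated best with its own number. With the replicate block 12 cytosolic genes rose in each line and 4 mitochondrial genes fell in PC3 cells, LARS2 (-0.18, adjusted p = 0.062) and, in DU145 cells, FARSB (-0.098, adjusted p = 0.054) losing their calls. Per kilobase of the median transcript the cytosolic median in vehicle PC3 cells was 311 CPM, against 91.4 with the longest. The planned protein features were not run.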
